A study of Mus musculus with 16 samples.

Results

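The genes described here are 10 markers of the pericentral zone of the mouse liver lobule and targets of Wnt signalling: Glul, Cyp2e1, Cyp1a2, Oat, Rhbg, Axin2, Lgr5, Slc1a2, Tbx3 and Rnf43. They were chosen by name, as genes known to be expressed around the central vein or induced by Wnt and beta-catenin. The rule itself uses no measured value, but these genes and the lists below were chosen with earlier results of these data known. All 10 were found by symbol among 78317 listed genes and all 10 were among the 14781 genes tested. The files identify them as ENSMUSG00000026473.18 (Glul), ENSMUSG00000025479.10 (Cyp2e1), ENSMUSG00000032310.5 (Cyp1a2), ENSMUSG00000030934.10 (Oat), ENSMUSG00000104445.2 (Rhbg), ENSMUSG00000000142.16 (Axin2), ENSMUSG00000020140.16 (Lgr5), ENSMUSG00000005089.16 (Slc1a2), ENSMUSG00000018604.19 (Tbx3) and ENSMUSG00000034177.16 (Rnf43). The study measured polyadenylated RNA by sequencing in whole-liver powder of wild-type C57BL/6J mice of both sexes. Mice arrived at 6 weeks of age and then spent 10 weeks on either a chow with 4.5% of its calories from fat or a high fat diet with 60%. The chow and the high fat diet came from different makers, so fat content and the other ingredients of the diets cannot be told apart. There were 4 groups of 4 libraries: females on normal diet, females on high fat diet, males on normal diet and males on high fat diet. All libraries carry the same batch label. The hour of collection is not given in the sources used here. The labels do not say that each library came from a separate mouse, so p-values measure the spread between these libraries.

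Blood crosses the liver lobule from the portal vein to the central vein, and hepatocytes along that path carry out different tasks. Endothelial cells of the central vein secrete Wnt ligands and the Wnt amplifier R-spondin, which hold beta-catenin active in the surrounding hepatocytes and switch on pericentral genes. Among these are Glul (glutamine synthetase) and Oat (ornithine aminotransferase), which act in nitrogen and amino acid metabolism, the cytochromes P450 Cyp2e1 and Cyp1a2, which oxidise alcohol, drugs and toxins, the ammonium transporter Rhbg and the glutamate transporter Slc1a2. Lgr5 is a receptor for R-spondin, Axin2 and Rnf43 are feedback inhibitors of the pathway that are themselves Wnt targets, and Tbx3 is a transcription factor of pericentral hepatocytes. In whole-liver RNA, a change in the number of cells of a type and a change in RNA per cell cannot be told apart.

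Promoter windows are shown for the nitrogen enzyme Glul and the feedback inhibitor Axin2, which both rose in males given the high fat diet, and for the transporter Slc1a2, whose window holds a core motif of the Wnt effectors TCF and LEF. The sequences come from RefSeq on the build GRCm38.p6, run 5′ to 3′ on the gene's strand and span 250 bases before to 50 bases after an annotated start. Windows were found for 7 of the 10 genes. The motif searched was CTTTGAT on either strand, read as ATCAAAG on the other strand, and it is in capitals where present. The Glul window is chr1:153899679-153899978, plus strand, the Axin2 window is chr11:108920099-108920398, plus strand, and the Slc1a2 window is chr2:102706188-102706487, plus strand.
Glul: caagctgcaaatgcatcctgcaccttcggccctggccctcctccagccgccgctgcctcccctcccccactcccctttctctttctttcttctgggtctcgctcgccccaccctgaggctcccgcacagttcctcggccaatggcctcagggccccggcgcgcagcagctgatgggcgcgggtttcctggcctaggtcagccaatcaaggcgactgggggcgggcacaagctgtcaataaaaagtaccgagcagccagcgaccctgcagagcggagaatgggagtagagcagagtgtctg
Axin2: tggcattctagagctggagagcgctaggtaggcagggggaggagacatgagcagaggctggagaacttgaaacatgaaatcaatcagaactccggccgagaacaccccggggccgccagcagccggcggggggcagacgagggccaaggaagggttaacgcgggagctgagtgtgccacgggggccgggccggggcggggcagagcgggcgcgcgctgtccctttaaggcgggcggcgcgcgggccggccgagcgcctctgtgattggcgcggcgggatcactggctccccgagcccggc
Slc1a2: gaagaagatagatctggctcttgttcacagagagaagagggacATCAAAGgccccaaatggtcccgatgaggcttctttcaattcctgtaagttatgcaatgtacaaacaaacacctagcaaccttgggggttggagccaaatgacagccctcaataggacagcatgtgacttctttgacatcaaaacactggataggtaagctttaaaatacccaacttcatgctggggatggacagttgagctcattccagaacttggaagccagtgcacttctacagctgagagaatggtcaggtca
Slc1a2 holds 1 match, which begins 207 bases before the start, and it is the single one of the 7 genes with these exact letters. Other forms of the TCF and LEF motif were not searched. Of 32851 mouse promoter windows of the same length, 1225 (3.73%) hold this motif. The core bound by the aryl hydrocarbon receptor, GCGTG or CACGC on the other strand, is in 10639 windows (32.4%) and is not in these letters of the window of Cyp1a2, a known target of that receptor.

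Library totals ranged from 22228115 to 41420589 estimated counts. Hepatocyte marker genes were abundant in every library, with a summed level of 5 markers between 50084 and 87827 TPM, RSEM's length-corrected unit of abundance, and lowest in males on the high fat diet (50084 to 60330 TPM). In that group, replicates 2, 3 and 4 also held adipocyte transcripts, with 4 markers summing to 19.9, 20.8 and 9.75 TPM against 1.31 TPM in replicate 1 and at most 3.59 TPM in any other library. Pancreatic acinar markers summed to 18.3 and 6.93 TPM in replicates 2 and 3 of that group and to at most 4.06 TPM elsewhere. Replicates 2 and 3 were closer to each other than any other pair within a group (chi-square of 4.00 per gene, where sampling noise alone gives about 1, against 20.7 or more in all other pairs) and were kept as separate libraries. For male results that rest on these libraries, the value without them is given. The male calls of Wif1, Dvl1, Dvl3 and Pygo2 are given without such a value, and their dependence on these libraries was not examined singly.

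The high fat diet raised some of these genes in each sex, and none of the 10 was lower by edgeR's test (at an unadjusted p under 0.05, Cyp1a2 was lower in females). In females 2 of 10 were higher, Lgr5 and Rnf43, beside 11.5% of all genes called (5.74% higher and 5.76% lower). In males 4 of 10 were higher, Glul, Rhbg, Axin2 and Lgr5, beside 11.4% of all genes called (6.03% higher and 5.36% lower). A gene is called when its Benjamini-Hochberg adjusted p over all tested genes in edgeR's quasi-likelihood test is under 0.05. The median log2 fold change of the 10 genes was 0.02 in females and 0.32 in males, beside 0.0019 and 0.011 over all tested genes. On the deposited TPM, tested with limma on log2(TPM + 1), the same 4 genes were called in males and Tbx3 joined the 2 in females. That scale moved the median of all genes by 0.149 in females and 0.0505 in males, so that 2644 genes were called higher and 282 lower in females (848 and 852 on counts) and 899 and 443 in males (891 and 793 on counts). The count in males was again 4, with the same 4 genes, without replicates 2 and 3 of the high fat group. Without replicates 2, 3 and 4, which leaves 1 library that is assumed to vary like the other groups, none of the 10 was called in males and 400 of all genes were, instead of 1684. The part of the adipocyte and acinar RNA in the male results was not tested beyond these fits.

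**Figure D1:**
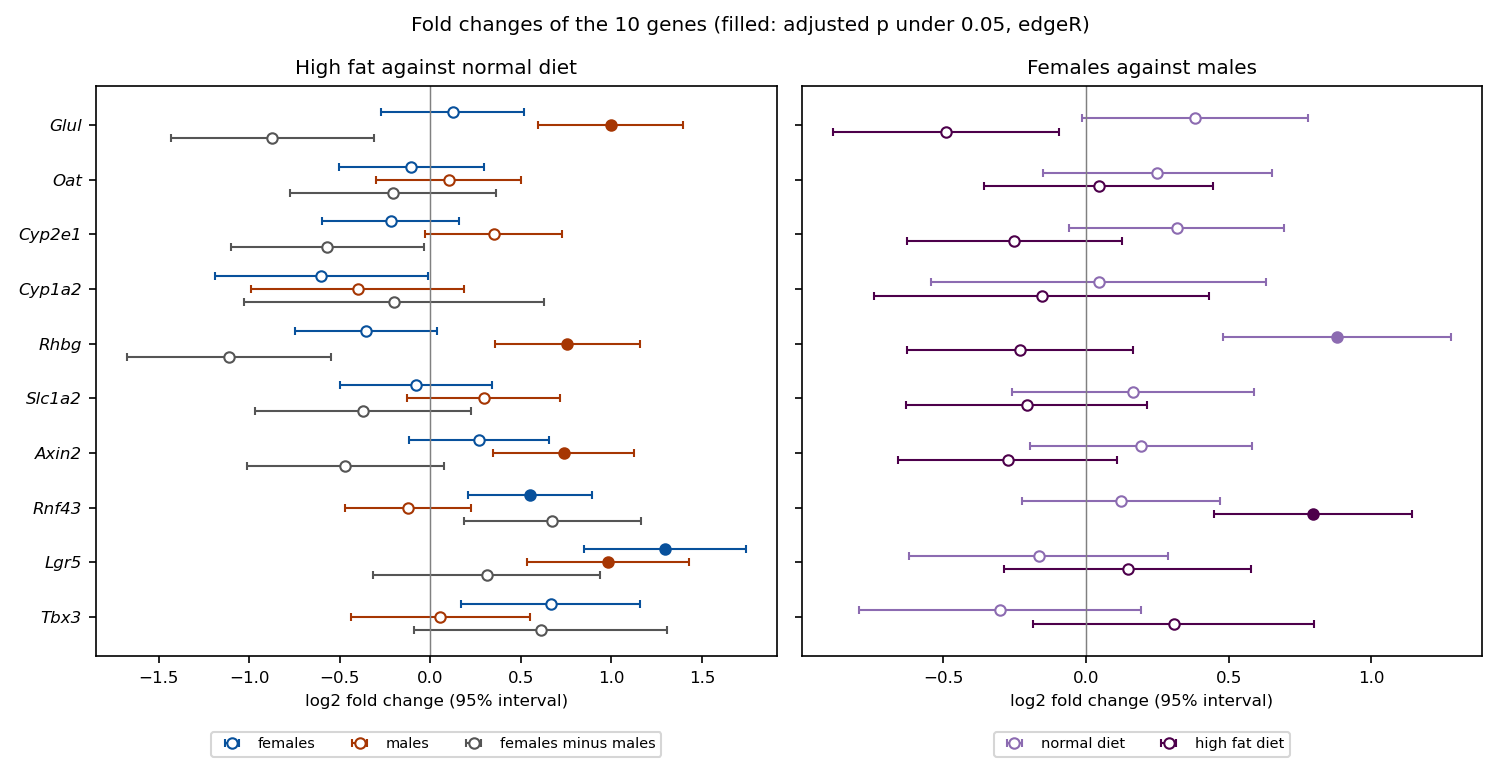
Log2 fold changes of the 10 genes (points) with 95% intervals (bars) for high fat against normal diet in each sex and the difference between the sexes (left), and for females against males on each diet (right). Filled points passed an adjusted p of 0.05 in edgeR: 2 in females, 4 in males, none for the difference between sexes, and 1 on each diet for sex.

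Lgr5, the R-spondin receptor, was higher on the high fat diet in both sexes. Its counts, scaled to library size (CPM), in females were 5.86, 11.0, 7.97 and 6.83 on high fat against 3.48, 2.85, 3.29 and 3.29 on normal diet. Males had 5.54, 6.45, 7.70 and 8.99 CPM on high fat against 3.99, 3.02, 4.80 and 2.79 CPM on normal diet. In neither sex did the diets overlap. The rise was 2.45-fold in females (log2 1.29 ± 0.21, SE; adjusted p = 0.000949) and 1.98-fold in males (log2 0.98 ± 0.21; adjusted p = 0.00628). The difference between the sexes was 0.31 on the log2 scale, with a 95% interval of -0.31 to 0.94. Lgr5 is scarce in whole liver, with 90 to 334 counts per library. In females the call held in every one of 16 alternative fits, with log2 changes of 0.87 to 1.42. In males it was lost only without replicates 2, 3 and 4 of the high fat group (log2 0.58 to 1.14 over 18 alternatives, 0.61 with an adjusted p of 0.372 in that fit).

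Rnf43, a ubiquitin ligase that removes Frizzled receptors from the cell surface, was higher on the high fat diet in females. Female libraries held 13.0, 15.2, 12.2 and 14.8 CPM on high fat and 10.8, 7.02, 9.62 and 10.3 CPM on normal diet, with no overlap. The rise was 1.46-fold (log2 0.55 ± 0.16; adjusted p = 0.0367). This call was close to the threshold: it was lost in 6 of 8 fits that left out 1 female library (every one but replicate 3 on high fat and replicate 1 on normal diet), with adjusted p up to 0.106. In males Rnf43 held 6.61, 9.84, 8.56 and 6.69 CPM on high fat and 11.1, 7.93, 7.91 and 7.71 CPM on normal diet, which overlap (log2 -0.12 ± 0.17; adjusted p = 0.674). Its paralogue Znrf3, of the same function, had log2 changes of 0.38 in females (adjusted p = 0.237) and -0.22 in males (adjusted p = 0.507).

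Axin2, a scaffold of the complex that degrades beta-catenin and a standard readout of Wnt activity, rose in males. Its male values were 8.06, 7.60, 6.12 and 6.64 CPM on high fat and 4.53, 3.34, 4.19 and 5.01 CPM on normal diet, so all high fat libraries lay above all normal ones. The rise was 1.67-fold (log2 0.74 ± 0.18; adjusted p = 0.0154), and was not called without male normal diet replicate 2 (adjusted p = 0.0539) or without high fat replicates 2, 3 and 4 (0.106). Females had 5.68, 6.25, 6.51 and 5.06 CPM on high fat and 5.82, 3.10, 5.01 and 5.60 CPM on normal diet. These overlap, and the change of 0.27 ± 0.18 did not pass (adjusted p = 0.365).

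Tbx3 had female values of 24.6, 24.1, 23.9 and 18.4 CPM on high fat and 16.1, 11.5, 17.2 and 12.7 CPM on normal diet. The female diets did not overlap, and the 1.59-fold difference missed the threshold (log2 0.67 ± 0.23; adjusted p = 0.0744). It passed in DESeq2 (adjusted p = 0.0391), in limma on TPM and in a fit of the female groups alone (adjusted p = 0.0172). Among males on normal diet 1 library, replicate 4, stood at 29.4 CPM against 10.7 to 15.9 CPM in the others, and the high fat libraries held 16.5 to 22.4 CPM (log2 0.06 ± 0.23; adjusted p = 0.910). An antisense gene, Tbx3os1, overlaps Tbx3 and had a mean of 79.5 counts. Whether the counting used strand is not given in the sources used here, so the Tbx3 values are uncertain to that extent.

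**Figure D2:**
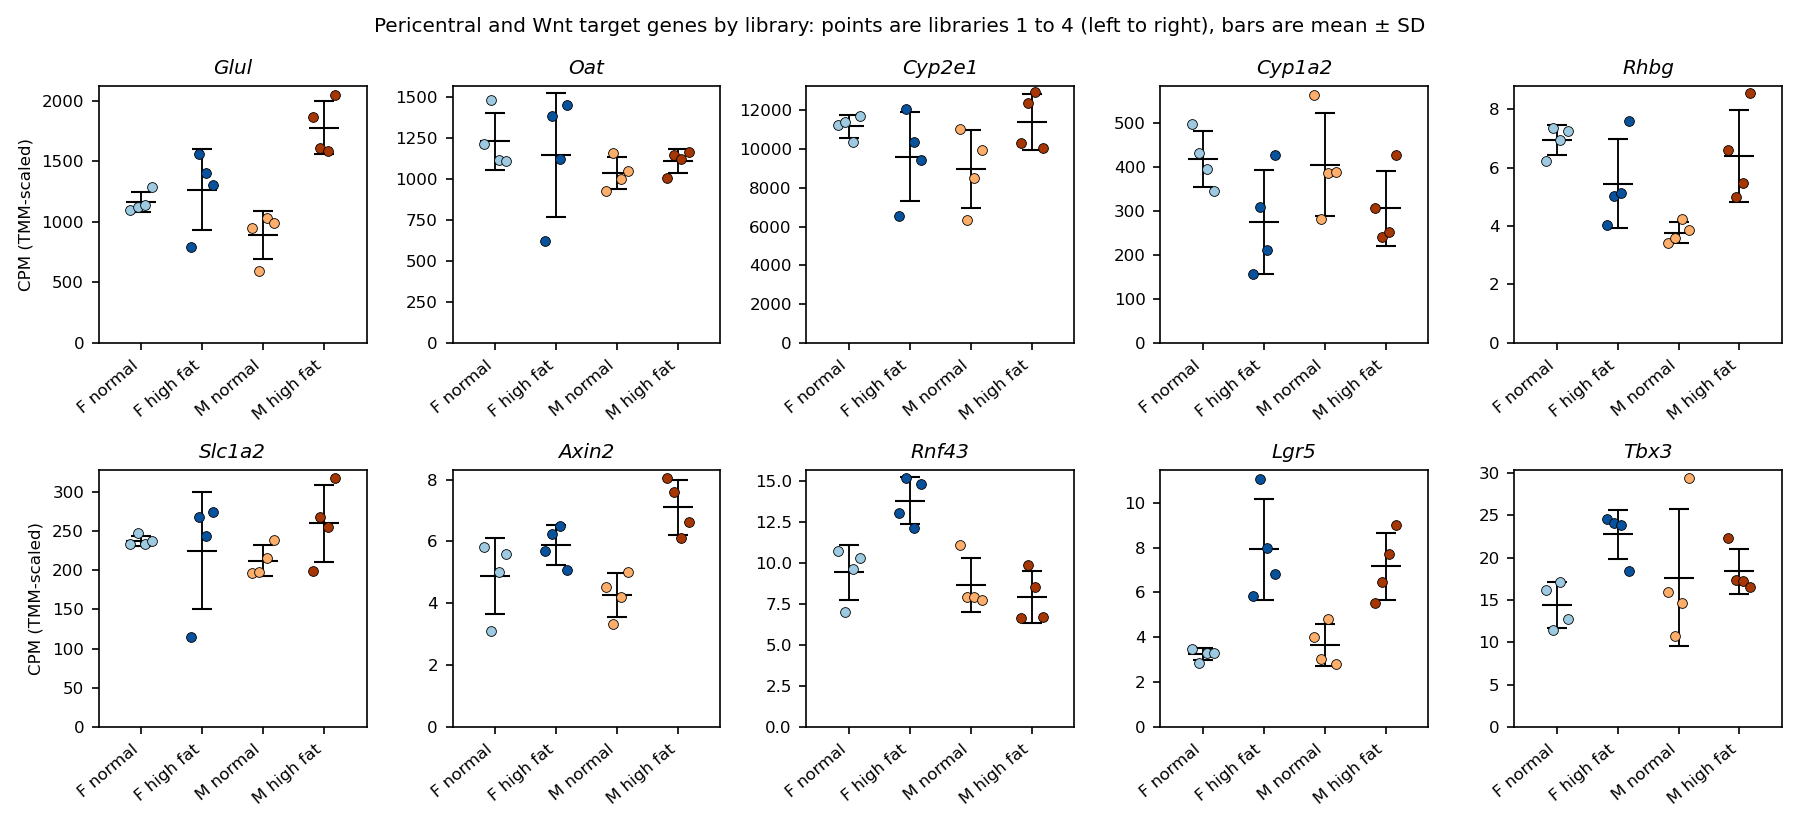
Library-scaled counts in CPM (vertical axis, linear from 0) of the 10 genes in the 16 libraries, by sex and diet. Points are libraries 1 to 4 from left to right and bars are the mean ± SD (n = 4). Lgr5 does not overlap between diets in either sex, Glul, Rhbg and Axin2 do not in males, and Rnf43 and Tbx3 do not in females. The share of all genes without overlap was not counted, so this does not set the 10 genes apart.

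Glul, which makes glutamine from glutamate and ammonia in the hepatocytes next to the central vein, doubled in males. The male libraries held 1870.2, 1615, 1586 and 2052 CPM on high fat and 947, 597, 1034 and 992 CPM on normal diet. The lowest high fat library was above the highest normal one, and the rise was 2.00-fold (log2 1.00 ± 0.19; adjusted p = 0.00272). In females Glul held 794, 1566, 1402 and 1307 CPM on high fat and 1098, 1127, 1142 and 1288 CPM on normal diet, which overlap (log2 0.12 ± 0.19, adjusted p = 0.714). The overlap came from high fat replicate 1 (794 CPM) alone, and the other high fat libraries lay above all normal ones. Over 16 alternatives the female change was 0.0046 to 0.33 and was never called. The male call held in 17 of 18 alternatives. The exception is the fit without high fat replicates 2, 3 and 4, where the log2 change was 1.07 and the adjusted p 0.0561. Over the same male groups the summed hepatocyte markers were lower on high fat (50084 to 60330 TPM) than on normal diet (61769 to 72812 TPM), and their part in the Glul result was not tested.

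Oat, which converts ornithine to glutamate semialdehyde, is normally strongest in the same cells as Glul. Its levels ranged from 621 to 1484 CPM over all libraries, and the diets overlapped in both sexes. The change was -0.10 ± 0.19 in females (adjusted p = 0.767) and 0.10 ± 0.19 in males (adjusted p = 0.779), with 95% intervals of -0.50 to 0.30 and -0.30 to 0.50. The female value turned to 0.10 without high fat replicate 1, which had the lowest Oat level of all libraries.

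Rhbg, a membrane transporter of ammonium, rose in males and did not pass in females, where its values lay mostly lower on high fat. Male values were 6.61, 4.99, 5.46 and 8.54 CPM on high fat and 3.42, 3.60, 4.23 and 3.87 CPM on normal diet, with no overlap. The male rise was 1.69-fold (log2 0.76 ± 0.19; adjusted p = 0.0159), and it was not called without high fat replicate 4 (adjusted p = 0.0662) or without replicates 2, 3 and 4 (0.127). Female values were 4.05, 5.03, 5.12 and 7.61 CPM on high fat and 6.23, 7.36, 6.95 and 7.27 CPM on normal diet. Of the 4 female high fat libraries 3 lay below all normal ones and replicate 4 above all of them (log2 -0.36 ± 0.19; adjusted p = 0.231).

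Slc1a2, the glutamate transporter GLT-1, had 115 to 318 CPM over all libraries and no called change with diet. The log2 change was -0.08 ± 0.20 in females (adjusted p = 0.836) and 0.29 ± 0.20 in males (adjusted p = 0.368). The female value was 0.14 without high fat replicate 1, at 115 CPM the lowest library of all.

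The deposited counts and TPM of Slc1a2 gave different values for the comparison of the sexes. The ratio of counts to TPM gives the effective length that RSEM assigned to a gene from its mix of transcripts, and the annotation lists 4 transcripts of Slc1a2. Relative to its mean over 16 libraries, this length was 0.898 ± 0.101 (SD, n = 4) in females on high fat, 0.879 ± 0.024 in females on normal diet, 1.10 ± 0.149 in males on high fat and 1.17 ± 0.042 in males on normal diet. On normal diet the 4 males (1.13 to 1.22) all lay above the 4 females (0.853 to 0.902). On high fat, male replicate 1 at 0.874 lay among the females. The male length was 1.27-fold that of females on average over both diets. A difference of at least this size was found in 12 of 9004 genes with adequate counts (0.133%), and in 12 of the 5422 of them that have several transcripts (0.221%). On the TPM scale Slc1a2 was accordingly higher in females on normal diet in limma (log2 0.58 with a pseudocount of 1; adjusted p = 0.0297), whereas counts gave 0.17 ± 0.20 (adjusted p = 0.618). This comparison of lengths was made after the values were seen and is a description without a test.

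**Figure D3:**
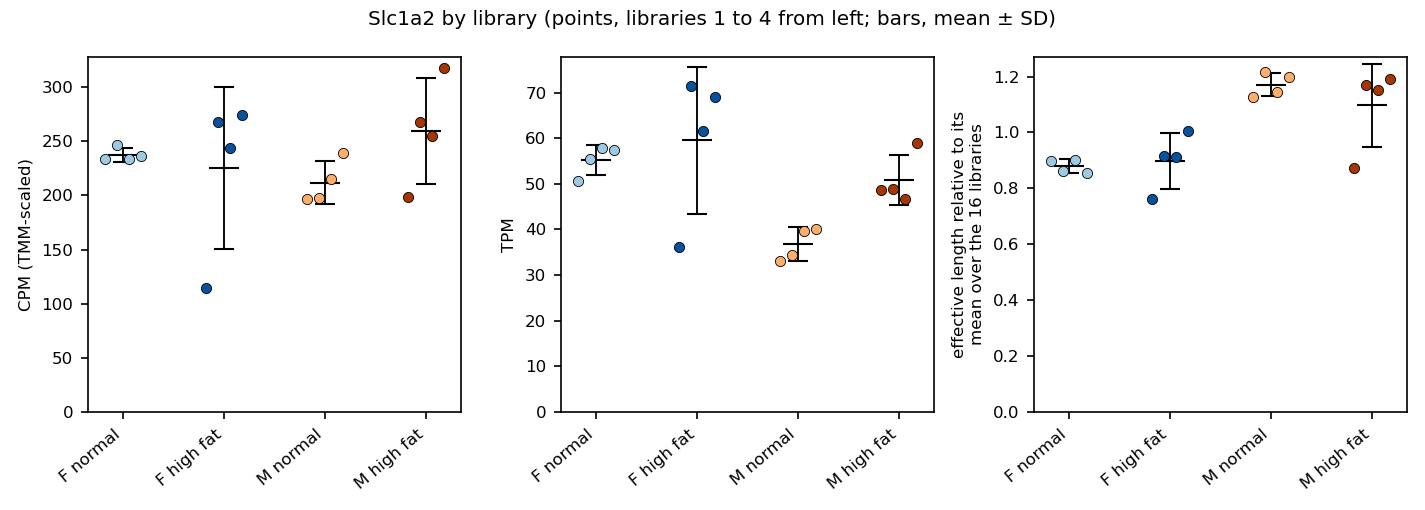
Slc1a2 in the 16 libraries by sex and diet as library-scaled counts in CPM (left), deposited TPM (middle) and effective length relative to its mean over the libraries (right), all axes linear from 0. Points are libraries and bars are the mean ± SD (n = 4): counts overlap between the sexes on normal diet, while the effective length is higher in the 4 males (1.13 to 1.22) than in the 4 females (0.853 to 0.902).

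Neither cytochrome P450 was called with diet. Cyp2e1, which oxidises ethanol and fatty acids, was the most abundant of the 10 genes at 6355 to 12926 CPM, with a log2 change of -0.22 ± 0.18 in females (adjusted p = 0.461) and 0.35 ± 0.18 in males (adjusted p = 0.216). Cyp1a2, which metabolises caffeine and aromatic amines, had female values of 155, 307, 211 and 426 CPM on high fat and 497, 430, 395 and 345 CPM on normal diet. Of the 4 female high fat libraries 3 lay below all normal ones (log2 -0.60 ± 0.28, 95% interval -1.19 to -0.01; adjusted p = 0.173). In males it held 306, 239, 253 and 426 CPM on high fat and 563, 282, 385 and 388 CPM on normal diet (log2 -0.40 ± 0.28; adjusted p = 0.376).

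None of the 10 genes passed the test of the difference between the female and male diet changes in edgeR, in which 0.677% of all genes were called (0.264% higher and 0.413% lower). At an unadjusted p under 0.05 there were 4 of the 10, Glul, Cyp2e1, Rhbg and Rnf43, beside 1918 of the 14781 genes tested. DESeq2 called 1 of the 10, Rhbg, beside 337 of all genes. The median difference of the 10 genes was -0.29, beside -0.0062 over all tested genes. Rhbg came closest, with a female change lower than the male one by 1.11 ± 0.27 on the log2 scale (adjusted p = 0.0668). It was called in 5 of 25 alternatives, and its adjusted p ranged from 0.0102 to 0.153. For Glul the difference was -0.87 ± 0.27 (adjusted p = 0.157), and for Rnf43 it was 0.67 ± 0.23 (adjusted p = 0.230). That these genes were called in one sex and not in the other therefore does not show that the sexes responded differently.

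Between the sexes on normal diet 1 of 10 was called, Rhbg, beside 15.7% of all genes (7.03% higher in females and 8.68% lower). All 4 females (6.23 to 7.36 CPM) lay above all 4 males (3.42 to 4.23 CPM), a 1.84-fold difference (log2 0.88 ± 0.19; adjusted p = 0.00476). On the high fat diet, where 20.4% of all genes were called (8.84% higher in females and 11.6% lower), 1 of 10 was called, Rnf43. Its 4 females (12.2 to 15.2 CPM) lay above its 4 males (6.61 to 9.84 CPM), a 1.74-fold difference (log2 0.80 ± 0.16; adjusted p = 0.00307) that passed in all 18 alternatives. Glul also separated the sexes without passing: females were above males on normal diet (log2 0.38 ± 0.19; adjusted p = 0.177) and below them on high fat (log2 -0.49 ± 0.19; adjusted p = 0.0728). The median female against male difference of the 10 genes was 0.18 on normal diet and -0.18 on high fat, beside -0.0020 and -0.010 over all tested genes. These comparisons use the same libraries as the diet comparisons.

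On the length-corrected scale the 10 genes spanned more than 3 orders of magnitude. Mean TPM over the 16 libraries was 7931 for Cyp2e1, 723 for Oat, 609 for Glul, 249.9 for Cyp1a2 and 50.6 for Slc1a2. The transcription factor and the Wnt pathway components were scarce, at 4.85 TPM for Tbx3, 3.13 TPM for Rnf43, 1.66 TPM for Axin2 and 1.51 TPM for Lgr5, as was Rhbg at 4.10 TPM. Group means of Axin2 (1.19 to 2.11 TPM) and Lgr5 (0.818 to 2.37 TPM) overlap, so these neighbours in the order did not separate. Those of Oat (624 to 823 TPM) and Glul (398 to 842 TPM) overlap as well, and so do those of Tbx3, Rhbg and Rnf43.

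Within groups, some of the 10 genes varied together. Over the 16 libraries, the deviations of log2 CPM from the group mean correlated at r = 0.88 for Oat and Slc1a2, 0.72 for Glul and Cyp2e1, 0.70 for Glul and Slc1a2, and 0.67 both for Cyp1a2 and Rhbg and for Axin2 and Tbx3. Several of these values rested on female high fat replicate 1: without it they were 0.47, 0.51 and 0.26 for the first 3 pairs, and 0.55 and 0.68 for the last pairs. Axin2 and Oat had r = -0.32, and -0.76 without that library. These values describe libraries that share preparation and depth, and carry no p. Female high fat replicate 1 was also the lowest of its group for 7 of the 10 genes (Glul, Cyp2e1, Cyp1a2, Oat, Rhbg, Lgr5 and Slc1a2). That library differed from the others of its group by a chi-square of 76.3 to 94.8 per gene, against 20.7 to 47.9 between the others. Male high fat replicate 4 was the highest of its group for 6 genes, and male normal diet replicate 2 the lowest of its group for 5.

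**Figure D4:**
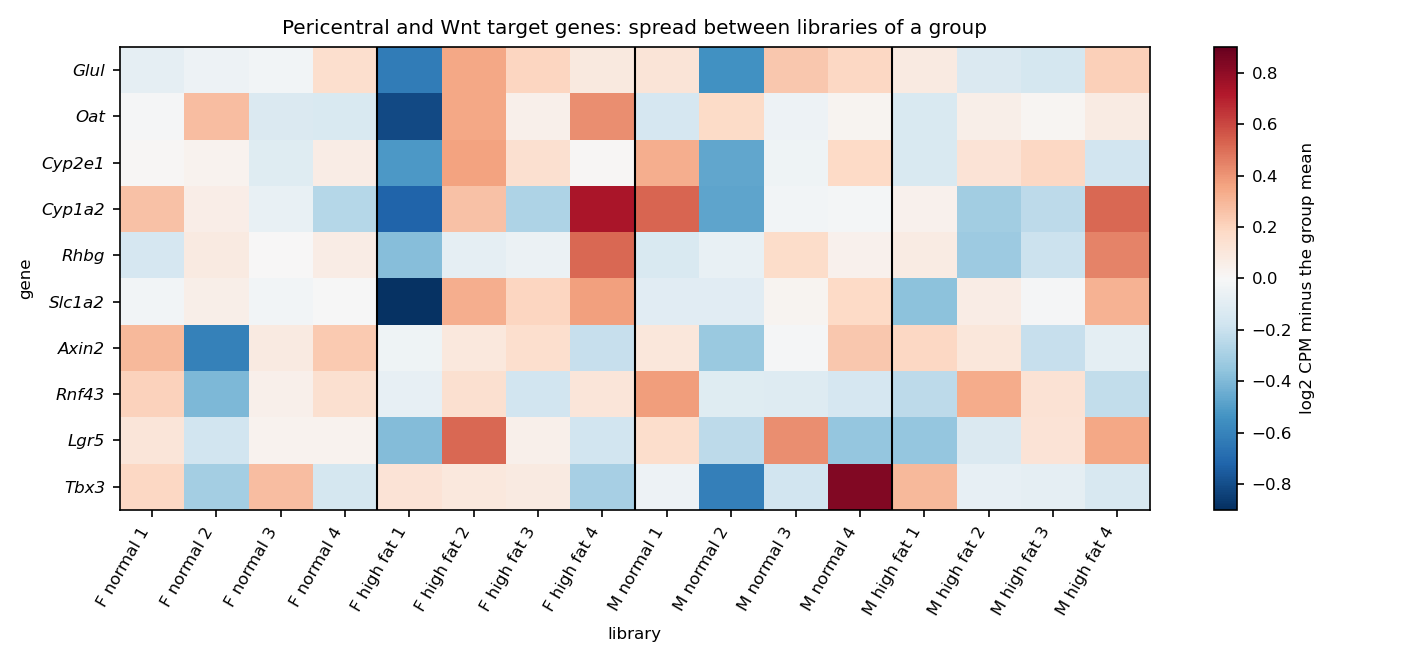
Deviation of each of the 10 genes (rows) from its group mean, as log2 CPM, in each of the 16 libraries (columns), with black lines between groups. Female high fat replicate 1 is the lowest of its group for 7 genes, furthest for Slc1a2 and Oat. These include the receptor Lgr5 (-0.391), which is as low there as Rhbg (-0.386). Axin2, Rnf43 and Tbx3 stay nearer their group mean.

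The genes whose within-group deviations were most like each of the 10 were found over the same 16 libraries by the highest r. Glul was most like Dcaf1 (r = 0.94) and Mup19 (0.93), Cyp2e1 like Cyp2c54 (0.92) and Pcp4l1 (0.91), and Slc1a2 like Sbf2 (0.95) and Exph5 (0.94). For Oat the closest were Pde4d and Angpt1 (both 0.92), for Rhbg Ldhd (0.89) and Ust (0.87), and for Cyp1a2 Gm16063 and Hmgb3 (both 0.88). Among the Wnt components, Lgr5 was most like Dync2h1 (0.93) and Gm42715 (0.85), Rnf43 like Zfp951 (0.91) and Arl16 (0.84), Axin2 like Zfp781 (0.86) and Gm45540 (0.84), and Tbx3 like Arhgap39 (0.84) and Bag3 (0.82). These are the top of correlations with all tested genes and describe these libraries only. Without female high fat replicate 1 these pairs had r = 0.62 to 0.92, lowest for Oat and Angpt1.

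The rest of the Wnt pathway was read from a list of 42 other genes, of which 37 were tested. The high fat diet changed 8 of 37 in females, 7 higher and 1 lower (21.6%), and 15 of 37 in males, 10 higher and 5 lower (40.5%), beside 11.5% and 11.4% of all genes (5.74% and 6.03% higher, 5.76% and 5.36% lower). The median log2 fold change of the list was 0.21 in females and 0.02 in males. With limma on log2(TPM + 1) the split was 13 higher and none lower in females, and 9 higher and 2 lower in males. The male count was 8 without high fat replicates 2 and 3 and 1 without replicates 2, 3 and 4. It fell to between 8 and 9 without any single one of male normal diet replicates 2, 3 and 4 or high fat replicates 2 and 4. The female count was 4 without normal diet replicate 2.

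Of 5 tested ligands and co-ligands, 1 was higher in females (20%) and 2 were higher in males (40%). Beside these, 5.74% and 6.03% of all genes were higher. The central vein ligands Wnt2 and Wnt9b were scarce, at 0.685 to 4.39 CPM and 0.405 to 1.30 CPM over all libraries, and had female log2 changes of 0.17 (adjusted p = 0.756) and -0.09 (adjusted p = 0.903). Their male changes were 0.35 (adjusted p = 0.518) and -0.23 (adjusted p = 0.730). Rspo3, the R-spondin of the central vein and a ligand of Lgr5, had 8.51, 7.74, 5.53 and 8.15 CPM in males on high fat and 4.61, 5.56, 5.06 and 5.58 CPM in males on normal diet. The male change passed, with 1 high fat library inside the normal range (log2 0.52 ± 0.15; adjusted p = 0.0321), and was not called in 9 of 18 alternatives (adjusted p = 0.0952 without high fat replicates 2, 3 and 4). In females it was 0.24 ± 0.15 (adjusted p = 0.317). Wnt5a, a ligand better known for signalling without beta-catenin, was higher in both sexes (log2 0.94 ± 0.28, adjusted p = 0.0392 in females; 1.34 ± 0.28, adjusted p = 0.00489 in males). The female call was lost in 8 of 16 alternatives (adjusted p up to 0.0985) and the male call without high fat replicates 2, 3 and 4 (adjusted p = 0.135). Endothelial cells are a known source of Wnt2, Wnt9b and Rspo3. Endothelial markers summed to 55.7 to 69.5 TPM in males on high fat and 50.4 to 59.9 TPM on normal diet, which overlap. In females they summed to 83.7 to 99.1 TPM on high fat and 69.4 to 80.9 TPM on normal diet, which do not, and 0 of 6 were called in either sex by edgeR (at an unadjusted p under 0.05, 2 in females and 1 in males). Stellate cell markers summed to 194 to 221 TPM on high fat and 185 to 204 TPM on normal diet in females (2 of 5 called higher), and to 149.9 to 189 TPM against 122 to 140.4 TPM in males (0 of 5 called in edgeR, 3 at an unadjusted p under 0.05). Macrophage markers summed to 258 to 390.2 TPM against 139 to 192 TPM in females (1 of 5 called higher), and to 111 to 235 TPM against 117 to 186 TPM in males (0 of 5 called in edgeR, and 0 at an unadjusted p under 0.05). Of all 14781 tested genes, 4025 in females and 4067 in males had an unadjusted p under 0.05 for diet in edgeR. The part of these cell types in the ligand and receptor changes was not tested. Rspo3 and Wnt5a are named after their values were seen.

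Of 10 receptors and genes of receptor turnover, 4 were higher in females, and 5 were higher and 1 was lower in males. The called shares were 40% and 60%, beside 11.5% and 11.4% of all genes. Fzd8, a Frizzled receptor for Wnt ligands, had 18.7, 31.1, 26.5 and 30.3 CPM in females on high fat against 10.3, 8.89, 8.42 and 10.6 CPM on normal diet. In males it had 12.9, 19.6, 21.5 and 17.4 CPM against 8.07, 6.42, 7.47 and 7.20 CPM. Neither sex overlapped between diets, and the rise was 2.78-fold in females (log2 1.48 ± 0.17; adjusted p = 4.18e-05) and 2.45-fold in males (log2 1.29 ± 0.17; adjusted p = 0.000116). Fzd5 was the single list gene called for a difference between the sexes in edgeR, 1.34 ± 0.18 on the log2 scale (adjusted p = 0.00183). It rose in females (7.39 ± 1.27 against 3.93 ± 0.282 CPM, SD, n = 4; adjusted p = 0.000349) and fell in males (6.52 ± 0.444 against 8.82 ± 0.565 CPM; log2 -0.44 ± 0.13; adjusted p = 0.0354), although the male fall alone was not called in 13 of 18 alternatives (adjusted p = 0.276 without high fat replicates 2, 3 and 4). Lrp5, a Wnt co-receptor, was higher in both sexes (log2 0.63 ± 0.14, adjusted p = 0.00883 in females; 0.83 ± 0.14, adjusted p = 0.00113 in males). The male rises of Fzd8 and Lrp5 were not called without high fat replicates 2, 3 and 4 (adjusted p = 0.0674 and 0.174).

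Among 14 signal relay genes, 1 was lower in females and 4 were lower in males (Axin1, Dvl1, Dvl3 and Pygo2), with none higher. These are 7.14% and 28.6% of the relay genes, beside 11.5% and 11.4% of all genes called (5.76% and 5.36% lower). The female share is below that of all genes called. Values of Dvl1, Dvl3 and Pygo2 without male high fat replicates 2, 3 and 4 are not given here. Axin1, the homologue of Axin2 and likewise a scaffold of the destruction complex, fell by 0.41 on the log2 scale in females (adjusted p = 0.00271) and by 0.26 in males (adjusted p = 0.0371), the latter not called in 14 of 18 alternatives. Neither fall of Axin1 was called on TPM (adjusted p = 0.151 and 0.174), nor the male fall without high fat replicates 2, 3 and 4 (adjusted p = 0.419). Beta-catenin itself, Ctnnb1, had log2 changes of 0.17 (adjusted p = 0.260) and 0.10 (adjusted p = 0.543). Of 4 other Wnt targets 2 (50%) were higher in each sex, Nkd1 and Tnfrsf19, beside 5.74% and 6.03% of all genes higher. The feedback inhibitor Nkd1 rose by 0.55 ± 0.16 on the log2 scale in females (adjusted p = 0.0342) and by 0.55 ± 0.17 in males (adjusted p = 0.0428). The Nkd1 call was lost in 6 of 16 alternatives in females (adjusted p up to 0.115) and in 14 of 18 in males (up to 0.367, without high fat replicates 2, 3 and 4). The Tnfrsf19 rise in males (log2 0.90 ± 0.28, adjusted p = 0.0464) lost its call in 11 of 18 alternatives. In 1 further alternative, without high fat replicates 2, 3 and 4, it turned to -0.12. Of 4 secreted antagonists none was called in females and 1 (25%) was called in males, Wif1 (log2 3.19 ± 0.98, adjusted p = 0.0429). This fold was fitted on few counts, with 0 to 0.162 CPM on normal diet and 0.137 to 2.04 CPM on high fat, which overlap. The Wif1 value without male high fat replicates 2, 3 and 4 is not given here. The relay genes, targets and antagonist of this paragraph are named after their values were seen.

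**Figure D5:**
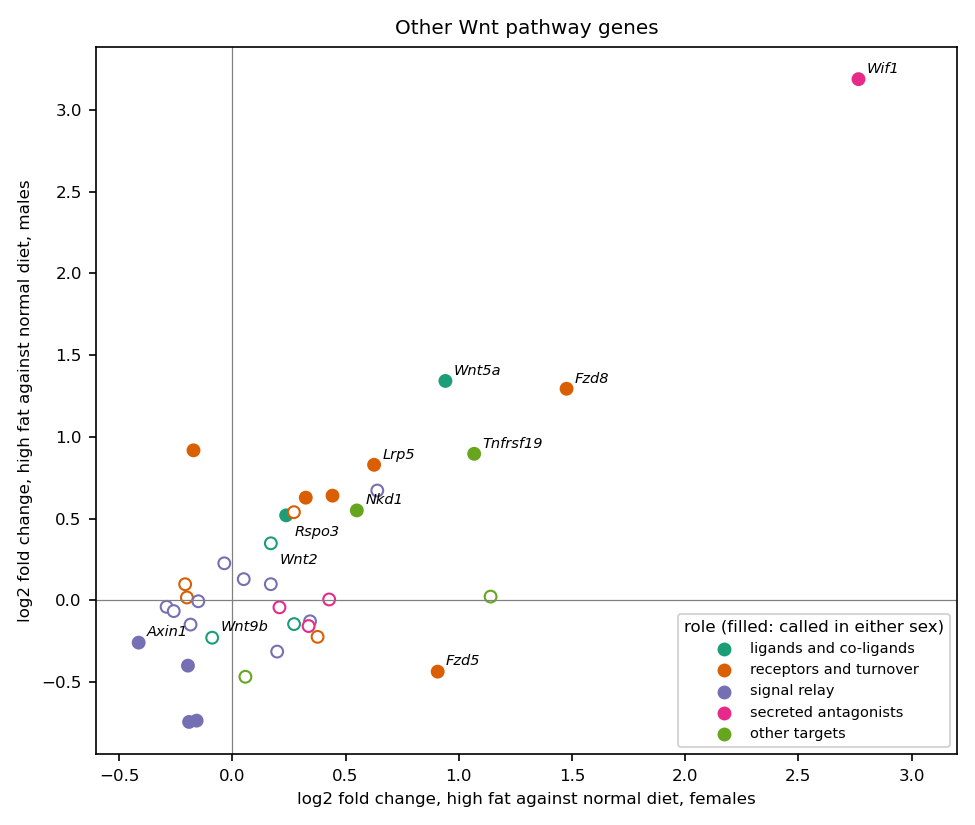
Log2 fold change with high fat diet in females (horizontal) and males (vertical) of the 37 tested genes of the wider Wnt list, coloured by role and filled where called in either sex. Fzd8, Lrp5, Wnt5a, Nkd1 and Tnfrsf19 lie above 0 in both sexes, and Fzd5 lies above 0 in females and below 0 in males.

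Among other pericentral genes more fell than rose. Of 28 tested, 8 changed in females, 2 higher and 6 lower (28.6%), and 11 in males, 4 higher and 7 lower (39.3%), with list medians of -0.29 and -0.03. Beside these, 11.5% of all genes were called in females (5.76% lower) and 11.4% in males (5.36% lower). Gstm3, a glutathione transferase, fell from 48.0 ± 4.37 to 19.2 ± 5.51 CPM in females (log2 -1.32 ± 0.20; adjusted p = 0.000478) and from 49.5 ± 3.98 to 11.2 ± 3.35 CPM in males (log2 -2.14 ± 0.20; adjusted p = 9.57e-06). Por, the electron donor of the microsomal P450 enzymes, fell by 0.85 on the log2 scale in females (adjusted p = 0.000619) and by 0.69 in males (adjusted p = 0.00282, and 0.0726 without high fat replicates 2, 3 and 4). Cyp3a11 fell from 10339 ± 671 to 816 ± 562 CPM in males (log2 -3.66 ± 0.41, adjusted p = 8.04e-05). Its male high fat libraries ranged from 251 to 1304 CPM, highest in replicates 2 and 3. In females Cyp3a11 fell as well (log2 -1.74, adjusted p = 0.00922), and that call held in all 16 alternatives. The tight junction gene Cldn2 and the dicarboxylate transporter Slc13a3 are named after their values were seen. Slc13a3 rose in males (log2 1.39 ± 0.26; adjusted p = 0.00335), and its female rise (log2 0.84 ± 0.26; adjusted p = 0.0469) was lost in 9 of 16 alternatives (adjusted p up to 0.143). Cldn2 rose in both sexes and held 154 to 173 CPM against 46.0 to 80.8 CPM in males (log2 1.42 ± 0.19; adjusted p = 0.000203) and 74.2 to 123 CPM against 39.6 to 61.9 CPM in females (log2 0.93 ± 0.19; adjusted p = 0.00519).

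Of 21 periportal genes, which mark the other end of the lobule, 4 were lower in females (19%) and 3 in males (14.3%), with none higher in edgeR, beside 11.5% and 11.4% of all genes called (5.76% and 5.36% lower). The male share is near that of all genes. With limma on log2(TPM + 1) 1 was higher and 2 were lower in each sex. Cyp2f2, a periportal P450, fell from 777 ± 51.2 to 409 ± 15.1 CPM in females (log2 -0.92 ± 0.10; adjusted p = 1.58e-05) and from 1256 ± 54.0 to 755 ± 42.5 CPM in males (log2 -0.73 ± 0.09; adjusted p = 0.000115). Pck1, which starts gluconeogenesis, fell by 1.34 on the log2 scale in females (adjusted p = 0.000384) and by 0.73 in males (adjusted p = 0.0219), the latter not called in 8 of 18 alternatives (adjusted p = 0.529 without high fat replicates 2, 3 and 4). Hsd17b6 was lower in males with overlapping groups (log2 -0.89 ± 0.22; adjusted p = 0.0153), and was not called without high fat replicates 2, 3 and 4 (adjusted p = 0.137). In the main edgeR fit no gene of the further pericentral or periportal lists was called for a difference between the sexes in diet change. At an unadjusted p under 0.05 there were 14 of 28 and 2 of 21, beside 1918 of all 14781 tested genes. DESeq2 called 2 and 0. Without male high fat replicates 2 and 3, edgeR called 4 further pericentral genes. Of 5 tested targets of the aryl hydrocarbon receptor, the regulator of Cyp1a2, none was called with diet in the main edgeR fit or in DESeq2. At an unadjusted p under 0.05 there were 0 in females and 2 in males, beside 4025 and 4067 of all tested genes. Without male high fat replicates 2 and 3, edgeR called 2 of these targets in males.

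Between the sexes, 8 of 37 Wnt list genes were called on normal diet (4 higher in females and 4 lower). On high fat 10 were called (5 and 5, or 8 and none with limma on log2(TPM + 1)). These are 21.6% and 27% of the list, beside 15.7% and 20.4% of all genes called. The further pericentral list had 6 of 28 higher in females on normal diet and none lower (21.4% called). On high fat it had 7 higher and 5 lower (42.9% called, and 11 and 5 with limma on log2(TPM + 1)). Of all genes 7.03% were higher in females on normal diet, and 8.84% were higher and 11.6% lower on high fat. Over all genes on high fat, that scale called 2957 higher in females and 753 lower, against 1306 and 1716 on counts.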

How the data were processed

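Polyadenylated RNA from 16 mouse liver libraries was sequenced. The tools named in the submitters' processing notes are STAR and RSEM on GRCm39; versions, filters and the use of strand are not given in the sources used here. The deposited estimated counts (expected counts of RSEM) and the deposited TPM were read per gene. Here 4.89% of the count entries were not whole, and they were rounded. The counts (22228115 to 41420589 per library) were fitted with edgeR 4.0.16 (TMM scaling, filterByExpr, robust quasi-likelihood, 1 mean per group, all 16 libraries) in R 4.3.3, with Benjamini-Hochberg adjustment over 14781 genes in each of 5 comparisons and a threshold of 0.05. CPM values are TMM-scaled. Alternatives used RLE size factors, no filter, DESeq2 1.42.0, limma 3.58.1 on log2(TPM + 1) and log2(TPM + 0.1), the 2 groups compared alone, a replicate block, averaging of 2 close libraries and leaving out each library. Leaving out male high fat replicates 2 and 3, or 2, 3 and 4, and correlations without female high fat replicate 1 were added after the data were seen. The script was tested on simulated counts.

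The 10 genes and the lists were chosen with earlier results of these data known. Named are the 10 genes, from each list the 2 called genes with the smallest p in each diet comparison and in the difference between sexes, and for each of the 10 the 2 most alike genes. Other names are marked as chosen after their values were seen, except Znrf3, Wnt2 and Wnt9b, which were named outside this rule without a mark. Of the 42 Wnt genes Wnt11, Rspo1, Lef1, Sfrp5 and Apcdd1 had at most 11 counts in any library and were not tested, nor were Ahrr and Aldh3a1 of the 7 aryl hydrocarbon receptor targets. The lists fixed for cell types held hepatocyte, endothelial, cholangiocyte, stellate, macrophage, lymphocyte, neutrophil, red blood cell, acinar and adipocyte markers.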

Additional observations from a re-analysis of the deposited data

Results flagged for a closer look

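In groups of 4 libraries, a value was singled out where the gap between the highest or lowest library and its nearest neighbour was a larger share of the range of the group than Dixon's critical value allows. Over the 10 genes and 16 other named genes 104 groups were examined and 6 met this rule, where chance alone gives about 1 in 20. Tbx3 was lowest in female high fat replicate 4 at 18.4 CPM (the others 23.9 to 24.6 CPM). In males on high fat, Tbx3 was highest in replicate 1 at 22.4 CPM (16.5 to 17.3 CPM). Rnf43 was highest in male normal diet replicate 1 at 11.1 CPM (7.71 to 7.93 CPM). The P450 reductase Por was lowest in female high fat replicate 1 at 312 CPM (450.2 to 468 CPM). Cyp3a11 was lowest in female high fat replicate 2 at 1932 CPM (2287 to 2342 CPM). Nkd1 was lowest in male normal diet replicate 2 at 1.60 CPM (2.44 to 2.59 CPM). Fzd5 was singled out because its diet change differed between the sexes, with a female minus male difference of 1.34 on the log2 scale in edgeR (adjusted p = 0.00183). It was called in all 25 alternatives of that test, with values from 0.76 to 1.43.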

How the results depend on the processing

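Of the changes of single genes, 1340 of their recomputed values kept direction and side of the threshold, 116 lost the call, 14 gained it and 29 changed sign. None of the changes of sign concerned a called change except Tnfrsf19 in males, at -0.12 without male high fat replicates 2, 3 and 4. The cause was not tested in any case. Depth limits Lgr5, Axin2, Rhbg and Rnf43 most, whose lowest libraries held 90, 97, 83 and 151 counts. The labels do not say that replicate numbers pair the libraries, and no pairing was used in the main fit. Deviations of same-numbered libraries correlated at -0.159 to 0.180, above 0.1 in 4 of 24 pairs, and 9 of 24 correlated best with their own number. With the replicate block, the 10 genes had 1 call in females (2 without it) and 1 for the difference between sexes (none without it). DESeq2 called 337 of all genes for the difference between sexes (100 in edgeR), 1 of the 10 genes, 2 Wnt genes and 2 further pericentral genes, and 6 periportal genes for diet in males and 4 for sex on normal diet. With no filter, 9 Wnt genes were called in males and 1 of the 10 for the difference between sexes. With limma on log2(TPM + 1) and log2(TPM + 0.1), 2926 and 2763 of all genes were called for diet in females, 13 Wnt genes in both, 2 of the 10 genes for sex on normal diet and 8 periportal genes for sex on high fat; the second called 6 Wnt genes for sex on high fat. On these scales the female change was 0.076 in both for Oat and 0.061 in both for Slc1a2, and the sex difference of Slc1a2 on high fat was 0.18 and 0.19. With only the 2 groups compared, the calls were 9 Wnt genes for diet in males, 1958 of all genes and 7 further pericentral genes for sex on high fat, 11 further pericentral and 4 periportal genes for sex on normal diet, and 7 periportal genes for diet in females. Averaging male high fat replicates 2 and 3 gave 58 genes for the difference between sexes. Leaving both out gave, for diet in males, 2 receptor targets of the aryl hydrocarbon list and 8 Wnt genes, for the difference between sexes 4 further pericentral genes and 1 of the 10, and for sex on high fat 6 Wnt and 7 periportal genes. Leaving out replicates 2, 3 and 4 gave, for diet in males, 0 of the 10, 1 Wnt gene, 7 further pericentral genes and 400 of all genes, for sex on high fat 5 Wnt genes and 1417 of all genes, and for the difference between sexes 3 further pericentral and 1 periportal gene. In that fit the male diet change was -0.039 for Oat and -0.090 for Slc1a2, and Slc1a2 had 0.013 for the difference between sexes and 0.19 for sex on high fat.

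Leaving out 1 library at a time gave these ranges of calls. Of all genes, 947 to 1647 were called for diet in females, 1113 to 1912 for diet in males, 51 to 176 for the difference between sexes, 1325 to 2488 for sex on normal diet and 1974 to 3019 for sex on high fat. Of the 10 genes, 1 to 2 were called for diet in females, 0 to 1 for the difference between sexes and 1 to 2 for sex on high fat. The Wnt list gave 4 to 9, 8 to 12 and 1 to 2 for diet in females, diet in males and the difference. The further pericentral list gave 0 to 1 for the difference. The periportal list gave 2 to 5, 1 to 4 and 2 to 4 for diet in females, diet in males and sex on normal diet, and the aryl hydrocarbon list 1 to 2 for sex on normal diet. Fold changes whose sign turned were all uncalled. For diet in females they ranged from -0.24 to 0.10 for Oat and -0.19 to 0.14 for Slc1a2, and for diet in males from -0.13 to 0.42 for Tbx3 and -0.25 to 0.011 for Rnf43. For the difference between sexes they ranged from -0.49 to 0.0033 for Cyp1a2 and -0.34 to 0.0017 for Oat. For sex on normal diet they ranged from -0.089 to 0.25 for Cyp1a2 and -0.48 to 0.071 for Tbx3. For sex on high fat they ranged from -0.45 to 0.048 for Cyp1a2, -0.058 to 0.27 for Lgr5, -0.089 to 0.25 for Oat and -0.32 to 0.013 for Slc1a2.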
